A study of Mus musculus with 16 samples.

Results

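The chemokine receptor CXCR3 and its ligands CXCL9 and CXCL10 were followed through their genes, *Cxcl9*, *Cxcl10* and *Cxcr3*, which are 3 of the 24419 gene symbols in the count tables. The genes were chosen by name, with earlier results of these data known, and rows of the same symbol were summed. Single-cell RNA was counted in 16 libraries, from CD45+ and CD8+ cells sorted from MC38 tumors and from spleens of *Aire*+/+ and *Aire*-/- mice. MC38 is a colon tumor line derived from C57BL/6 mice, and it was implanted under the skin. All mice were on the C57BL/6 background and were 8-week-old littermates. They received anti-PD1 (clone RMP1-14) or an isotype antibody (clone 2A3, a rat IgG2a) in the peritoneum at 5 mg/kg, first on day 0, then on days 3 and 7, and last on days 10 and 14, and tissue was taken on day 19. Each genotype was thus studied under both antibodies, and sets of 4 values are given in the order *Aire*+/+ under isotype, *Aire*+/+ under anti-PD1, *Aire*-/- under isotype, *Aire*-/- under anti-PD1. *Aire* encodes a transcription factor of medullary thymic epithelial cells through which tissue antigens are shown to developing T cells, and the mutation is germline. Each tumor library held the tumors of 4 to 6 pooled mice, and spleens were also pooled, so that each condition, tissue and sort is 1 library with no replicate check.

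CXCR3 is a chemokine receptor of activated and memory T cells and of NK cells, and it guides these cells toward sites where its ligands are secreted. CXCL9, CXCL10 and CXCL11 are produced by macrophages, monocytes, dendritic cells and other cells that sense interferon. *Cxcl9* transcription depends closely on interferon-γ, whereas *Cxcl10* also responds to type I interferon and to NF-κB, and in tumors the axis is known for drawing in effector T cells.

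The tumor CD45+ libraries held 2930, 2208, 1856 and 2075 cells and 38930018, 28760725, 24639380 and 23282801 UMIs, with medians of 11892, 11858.5, 12251.5 and 9889 UMIs per cell. The tumor CD8+ libraries held 2684, 2221, 1858 and 2212 cells and 35163283, 27052446, 22414026 and 23271163 UMIs, with medians of 11163.5, 10349, 10199 and 8883. Spleen was shallower, with 12131829, 10927395, 11179230 and 12618100 UMIs in 2095, 2088, 2023 and 2393 CD45+ cells and 20126142, 19167791, 15590033 and 16279428 UMIs in 2898, 2944, 2339 and 2629 CD8+ cells. Median UMIs per spleen cell were 4549, 4413.5, 4733 and 4502 in the CD45+ sort and 6405, 6304.5, 6282 and 5801 in the CD8+ sort. Any pair of libraries shared between 2 and 18 cell barcodes, or 0.108 to 0.840% of the smaller library.

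*Aire* itself was read first. It reached 0, 0.0695, 0.0406 and 0 UMIs per 1000000 UMIs of the library (CPM) in the tumor CD45+ libraries, 0.171, 0.111, 0.0446 and 0 in the tumor CD8+ libraries and 0.165, 0.458, 0.358 and 0 in the spleen CD45+ libraries, and had no UMI in the spleen CD8+ libraries. With next to no *Aire* RNA in either genotype, the counts do not check the genotype labels. The Y-linked genes *Ddx3y*, *Eif2s3y*, *Kdm5d* and *Uty* were at or near 0 in every library, while *Xist* ranged from 171 to 369 CPM. The fibroblast gene *Col1a1* was at 1.10, 1.88, 11.7 and 0.258 CPM in the tumor CD45+ libraries and at 1.19, 0.0370, 68.0 and 0.215 in the tumor CD8+ libraries, so that *Aire*-/- isotype was highest in both sorts. *Fos*, an early response gene that also rises during tissue dissociation, was at 4615, 3873, 2776 and 1439 CPM in the tumor CD45+ libraries and was thus lowest in *Aire*-/- anti-PD1. The part of these differences in the results was not tested.

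Cells were assigned to classes by UMI thresholds on marker genes, so a class is a range of counts and not a cell type. Macrophages were taken as cells with at least 20 UMIs of *C1qa*, *C1qb* and *C1qc* together, and monocytes as C1q-low cells with at least 10 UMIs of *Lyz2* and at least 2 of a set of monocyte genes. The tumor CD45+ libraries held 1028, 693, 464 and 163 macrophages, 819, 569, 538 and 423 monocytes and 116, 197, 198 and 684 CD8 T cells. As shares of cells, macrophages made up 35.1, 31.4, 25.0 and 7.86%, monocytes 28.0, 25.8, 29.0 and 20.4% and CD8 T cells 3.96, 8.92, 10.7 and 33.0%. Of the macrophages, 109, 72, 55 and 25 lay below 40 C1q UMIs, and 59, 32, 48 and 27 cells outside the class had 10 to 19. Macrophages had median *C1qa* counts of 45, 45, 41 and 24 UMIs, median *Ly6c2* counts of 4, 6, 12 and 7 and a median *Cd3e* count of 0 in every library. In monocytes, median *Lyz2* was 61, 71, 96 and 114 and median *C1qa* was 0. CD8 T cells of the CD8+ tumor sort numbered 2438, 2084, 1747 and 2128, with median *Cd8a* counts of 15, 15, 16 and 13 UMIs and median *Cd3e* counts of 15, 16, 16 and 13. Cells positive for more than 1 of the T cell, B cell and C1q thresholds (66, 34, 33 and 11 in the tumor CD45+ libraries) entered no class. A further 17.4, 15.987, 14.4 and 14.2% of cells were ungated. Ungated cells met no threshold or failed a further condition of a class, as did T cells that also met the NK cell threshold. Doublets were not removed in any other way.

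With 1 library per group, 2 conditions could not be tested against each other, and a test of genotype over both treatments, which would rest on 4 libraries and 1 residual degree of freedom, was not run. Levels are given in CPM of the class with exact Poisson intervals in brackets, shares of cells with exact binomial (Clopper-Pearson) intervals, and ratios on the log2 scale with conditional exact intervals. All are 95% intervals, and they cover counting error only: the UMIs of 1 cell are counted as if independent, so a level carried by few cells is less certain than its interval. Where a count of 0 is said to allow a level, this is the level of 3 counts, a one-sided limit that is lower than the upper end of the exact 2-sided interval. Tumor classes other than CD8 T cells are those of the CD45+ sort unless the CD8+ sort is named.

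*Cxcl9* lies on the minus strand of chromosome 5 (chr5:92321331-92328079, GRCm38). Over all tumor CD45+ cells it was at 143 [139, 147] in *Aire*+/+ isotype, 223 [218, 229] in *Aire*+/+ anti-PD1, 434 [425, 442] in *Aire*-/- isotype and 327 [319.9, 335] in *Aire*-/- anti-PD1 CPM. Both *Aire*-/- libraries were above both *Aire*+/+ libraries. The intervals of the 4 libraries, which cover counting error only, did not overlap, and the share of all genes so separated was not computed. The ratio of *Aire*-/- to *Aire*+/+ was 1.60 [1.55, 1.65] under isotype and 0.55 [0.50, 0.60] under anti-PD1. These sums mix the level within classes with the shares of the classes, which differed between the libraries.

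Within tumor macrophages, *Cxcl9* rose from library to library in the order in which the groups are named. It was at 170.2 [164, 177], 341 [329.7, 352], 547 [530.3, 564] and 942 [900.3, 986] CPM, from 2745, 3726, 4083 and 1884 UMIs. Under isotype the *Aire*-/- level was 3.21 times the *Aire*+/+ level (log2 1.68 [1.61, 1.75]). Under anti-PD1 it was 2.77 times the *Aire*+/+ level (log2 1.47 [1.39, 1.55]). Anti-PD1 went with a higher level in either genotype, by 1.00058 [0.93, 1.07] in *Aire*+/+ and 0.78 [0.71, 0.86] in *Aire*-/- mice. The *Aire*-/- anti-PD1 library, with the highest level, also had the fewest macrophages. The tumor CD8+ sort held only 5, 9, 12 and 6 macrophages, and these did not follow that order, with *Cxcl9* at 322, 71.55, 214 and 635 CPM. Their *Aire*-/- to *Aire*+/+ ratio was −0.59 [−1.16, −0.021] under isotype and 3.15 [2.22, 4.17] under anti-PD1. Of 11459 genes compared in macrophages under isotype, 2.98% were at least 2-fold higher and 2.89% at least 2-fold lower in *Aire*-/- cells. Of 10900 genes compared under anti-PD1, 3.71% were at least 2-fold higher and 7.93% at least 2-fold lower. *Cxcl9* was past 2-fold in both comparisons and *Cxcl10* in neither.

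The share of macrophages with at least 1 *Cxcl9* UMI was 24.4 [21.8, 27.2], 32.2 [28.7, 35.8], 38.8 [34.3, 43.4] and 49.7 [41.8, 57.6]%. With every cell thinned to 1000 UMIs, which left out no cell, it was 8.56, 13.7, 18.1 and 28.2%. NK cells of the same libraries, which are not a known source of *Cxcl9*, had a share of 1.96, 0.794, 1.97 and 1.18%, at median depths of 10009.5, 8529, 9216.5 and 9147 UMIs against 14608, 14957, 14260.5 and 11560 in macrophages. The share rose in the same order as the level and was far above this background. More strongly expressing cells also took a larger share, since 7.49, 11.5, 18.1 and 27.0% of macrophages held at least 10 UMIs of *Cxcl9* and 0.973, 2.89, 5.60 and 8.59% at least 50. A minority of cells carried most of the message in each library, with 87.7, 84.1, 78.1 and 63.3% of *Cxcl9* UMIs in the top 10% of macrophages. The largest count in 1 macrophage was 171, 253, 258 and 146 UMIs. *Cxcl9* was thus spread over more of the macrophages in *Aire*-/- anti-PD1 than in the other libraries.

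**Figure D1:**
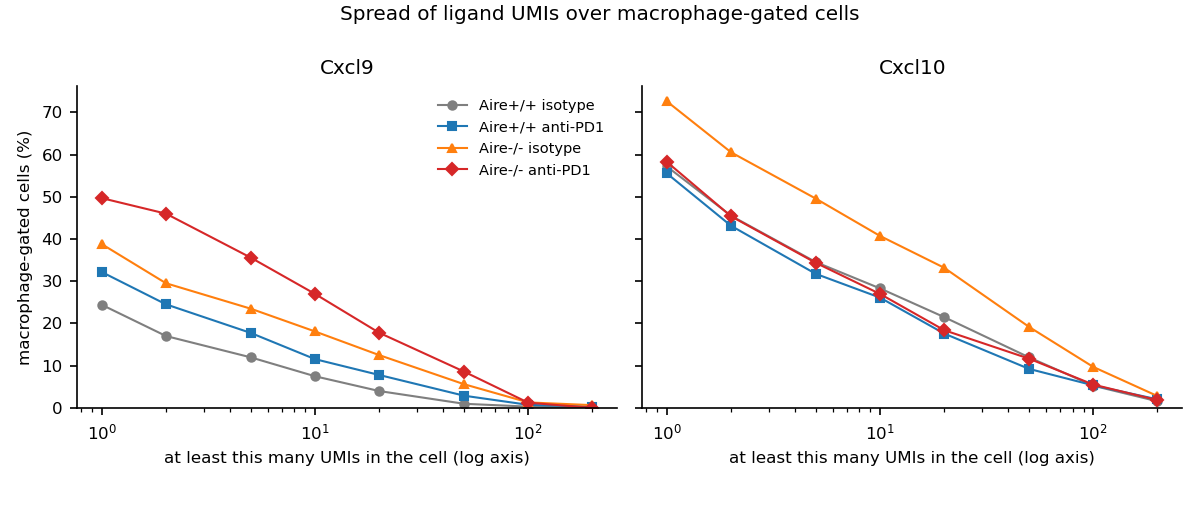
Share of tumor macrophages (CD45+ sort, %) with at least the number of UMIs on the x axis (log scale) of *Cxcl9* (left) or *Cxcl10* (right), 1 line per condition and no intervals. For *Cxcl9* the *Aire*-/- anti-PD1 line starts at 49.7% and the *Aire*+/+ isotype line at 24.4%, while for *Cxcl10* the *Aire*-/- isotype line starts highest, at 72.6%.

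Tumor monocytes gave a related but not identical pattern. Their *Cxcl9* was at 174 [166, 182], 228 [217, 239], 665 [646, 685] and 609.9 [588, 633] CPM, from 1720, 1600, 4518 and 2835 UMIs. The *Aire*-/- to *Aire*+/+ ratio was 1.93 [1.85, 2.01] under isotype and 1.42 [1.33, 1.51] under anti-PD1. The anti-PD1 to isotype ratio was 0.39 [0.29, 0.49] in *Aire*+/+ mice and −0.12 [−0.19, −0.056] in *Aire*-/- mice. Monocytes therefore showed the genotype difference of macrophages, whereas the *Aire*-/- libraries differed little with treatment. The share of monocytes with a *Cxcl9* UMI was 14.7 [12.3, 17.3], 18.6 [15.5, 22.1], 28.4 [24.7, 32.5] and 31.7 [27.3, 36.3]%, and 6.35, 9.49, 15.1 and 19.4% after thinning, at median depths of 11815, 11987, 12319.5 and 10892 UMIs.

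The dendritic cell classes were small. Mature dendritic cells (68, 54, 75 and 86 cells; *Fscn1*, *Ccr7* and *Ccl22*) had *Cxcl9* at 152 [127, 182], 223 [191, 259], 404 [368, 442] and 475 [438, 514] CPM, with *Aire*-/- to *Aire*+/+ ratios of 1.41 [1.12, 1.70] under isotype and 1.09 [0.84, 1.34] under anti-PD1. Cross-presenting cDC1 cells (17, 15, 19 and 27 cells; *Xcr1* and *Clec9a*) were at 316 [258, 383], 64.2 [39.7, 98.1], 387 [323, 459] and 1400.1 [1295, 1511] CPM. Their ratio was 0.29 [−0.094, 0.68] under isotype, with an interval that spans 0, and 4.45 [3.82, 5.15] under anti-PD1. In *Aire*-/- anti-PD1, 70.4% [49.8, 86.2] of the cDC1 cells had a *Cxcl9* UMI. The cDC2 class (43, 36, 35 and 27 cells; *Cd209a* and *Flt3*) was at 183 [152, 218], 74.9 [54.5, 101], 727 [657, 803] and 873 [783, 971] CPM, with ratios of 1.99 [1.70, 2.29] and 3.54 [3.09, 4.03]. Single cells carried much of these counts. The richest cell held 80, 80, 91 and 87 of the 124, 174, 465 and 614 UMIs of mature dendritic cells, 37, 8, 82 and 189 of the 102, 21, 130 and 659 of cDC1 cells and 55, 20, 148 and 187 of the 124, 44, 389 and 343 of cDC2 cells. In cDC1 and cDC2 cells alike, *Aire*+/+ anti-PD1 was the lowest library. In the tumor CD8+ sort, which held 36, 19, 8 and 3 cDC1 cells, these had 100, 0, 0 and 0 UMIs of *Cxcl9*, so that under isotype the *Aire*+/+ level was the higher one, at 195 CPM, though 95 of its UMIs came from 1 cell. The 0 counts allow up to 10.7, 33.8 and 67.4 CPM. Mature dendritic cells of that sort (30, 17, 14 and 4 cells) were at 11.011, 296, 321 and 177 CPM, with 5, 35, 61 and 7 of the 6, 59, 98 and 8 UMIs in 1 cell, and the intervals of the 2 anti-PD1 levels overlapped.

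The order of the classes differed between the libraries. In *Aire*+/+ isotype, cDC1 cells were highest in *Cxcl9*, and the intervals of cDC2 cells, monocytes, macrophages and mature dendritic cells overlapped. In *Aire*-/- anti-PD1 the order was cDC1 cells, macrophages, cDC2 cells, monocytes and mature dendritic cells, and of these neighbours the intervals of macrophages and cDC2 cells overlapped, with 187 of the 343 cDC2 UMIs in 1 cell.

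The remaining tumor classes held few *Cxcl9* UMIs, which in small classes can still come to a sizable CPM. CD8 T cells of the CD45+ sort had 0, 4, 24 and 235 UMIs, and the 0 allows a level of up to 2.41 CPM. Of the 235 UMIs in *Aire*-/- anti-PD1, 134 came from 1 cell. In the CD8+ sort, CD8 T cells had 0.319, 0.595, 1.35 and 2.03 CPM, with *Aire*-/- to *Aire*+/+ ratios of 2.08 [0.99883, 3.29] and 1.77 [0.90, 2.72] from 10, 15, 28 and 45 UMIs. C1q UMIs per cell of these CD8 T cells rose in the same order, at 0.104, 0.189, 0.242 and 0.289. NK cells had 22, 1, 3 and 4 UMIs (14.3, 0.628, 1.61 and 1.20 CPM), regulatory T cells 28, 1, 3 and 3 (24.3, 1.36, 9.59 and 6.14 CPM) and other CD4 T cells 1, 1, 1 and 21 (8.90, 4.60, 4.50 and 93.4 CPM). Of the 21 UMIs of other CD4 T cells in *Aire*-/- anti-PD1, 18 came from 1 cell. Neutrophils had 7, 0, 33 and 0 UMIs in 25, 18, 18 and 8 cells, or 36.4, 0, 282 and 0 CPM, so that their *Aire*-/- isotype level was above that of *Aire*+/+ isotype macrophages, though 31 of the 33 UMIs came from 1 cell. Those 0 counts allow up to 33.2 and 74.5 CPM. Plasmacytoid dendritic cells had 7, 0, 0 and 0 in 8, 8, 3 and 9 cells.

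The makeup of the *Cxcl9* message shifted with these levels and with the class shares. Macrophages held 49.3, 58.0, 38.2 and 24.7% of the *Cxcl9* UMIs of the tumor CD45+ libraries, and monocytes held 30.9, 24.9, 42.3 and 37.2%. Mature dendritic cells held 2.23, 2.71, 4.35 and 8.06%, and cDC1 cells 1.83, 0.327, 1.22 and 8.65%. In *Aire*-/- anti-PD1, macrophages were 7.86% of cells and 24.7% of *Cxcl9* UMIs, and cDC1 cells were 1.30% of cells and 8.65% of *Cxcl9* UMIs. Ungated cells held 8.71, 12.0, 5.70 and 12.4%.

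Macrophages and monocytes were also divided by state genes, with thresholds chosen after the data were seen. *Nos2*, the inducible nitric oxide synthase, had a UMI in 12.6, 11.5, 18.5 and 31.3% of macrophages. *Cxcl9* was at 296, 540.2, 889 and 1548 CPM in these cells and at 149, 314, 453 and 665 in macrophages without a *Nos2* UMI. Median depths were 16859, 15215, 17161.5 and 11521 and 14252, 14943, 13870 and 11562.5 UMIs. In every library *Nos2*-positive macrophages were higher, and the order of the 4 libraries was the same on either side. Monocytes with a *Nos2* UMI were at 317, 652, 1503 and 1351 CPM, against 163, 198, 589.9 and 528 without. Monocytes with a *Nos2* UMI were likewise higher in every library. Only 29, 20, 13 and 5 macrophages had at least 5 UMIs of *Mrc1*, the mannose receptor, and their *Cxcl9* was at 109, 47.1, 31.5 and 0 CPM.

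**Figure D2:**
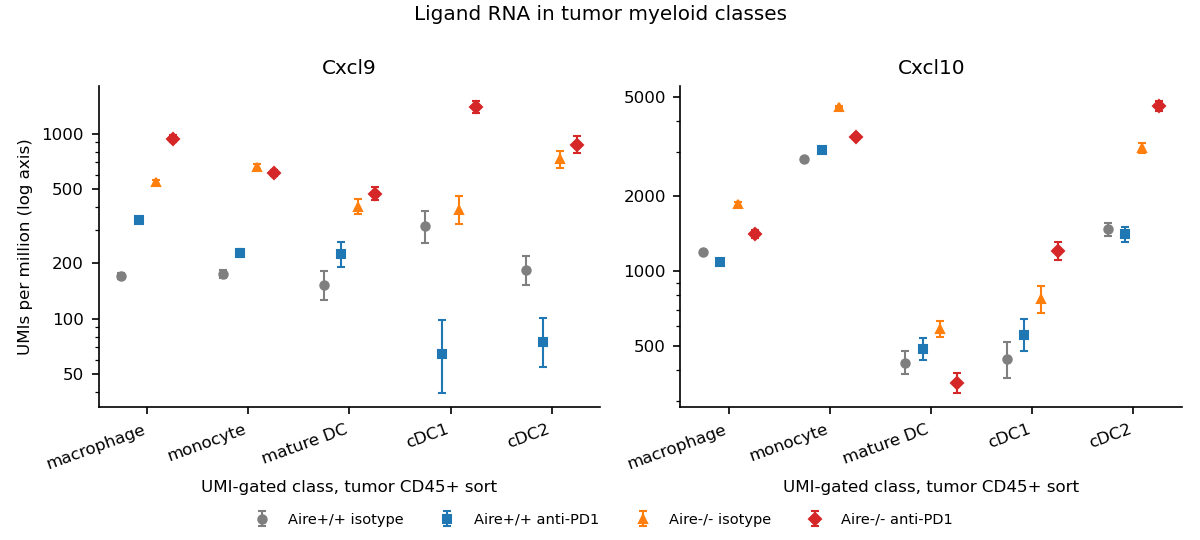
*Cxcl9* (left) and *Cxcl10* (right) in CPM on a log axis in 5 myeloid classes of the tumor CD45+ sort, 1 point per condition with exact Poisson 95% intervals. *Cxcl9* in macrophages and monocytes is higher in both *Aire*-/- libraries than in both *Aire*+/+ libraries, and the smaller classes have wider intervals.

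In spleen *Cxcl9* was sparse. The CD45+ libraries had 61, 62, 22 and 4 UMIs, or 5.03, 5.67, 1.97 and 0.317 CPM. Single cells held most of these in *Aire*+/+ mice, since 1 mature dendritic cell carried 39 of the isotype UMIs and 1 cDC2 cell 59 of the anti-PD1 UMIs. Spleen monocytes had 0, 0, 10 and 0 UMIs. In the spleen CD8+ sort, which takes in cDC1 cells that carry CD8α, cDC1 cells were the main holders of *Cxcl9*. These cells (70, 44, 21 and 34 in number) were at 280.2 [247, 317], 92.6 [67.3, 124], 162 [113, 226] and 255 [204, 315] CPM from 256, 44, 35 and 85 UMIs. The share of them with a UMI was 45.7 [33.7, 58.1], 31.8 [18.6, 47.6], 57.1 [34.0, 78.2] and 41.2 [24.6, 59.3]%, and 18.6, 9.09, 9.52 and 8.82% after thinning. Their *Aire*-/- to *Aire*+/+ ratio was −0.79 [−1.34, −0.28] under isotype and 1.46 [0.92, 2.02] under anti-PD1, but both signs turned, to 0.11 and −0.45, once cells above the 95th percentile of UMIs of their library were left out. Over all cells of that sort *Cxcl9* was at 13.4 [11.9, 15.1], 2.82 [2.12, 3.68], 2.82 [2.05, 3.79] and 8.54 [7.18, 10.1] CPM.

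*Cxcl10* (chr5:92346638-92348889, minus strand) lies within the plus-strand gene *Art3*, as does *Cxcl11*. Whether counting used strand was not stated for these libraries, so reads of *Cxcl10* and of overlapping *Art3* transcripts cannot be told apart with certainty. *Art3* was at 0.620, 1.10, 2.41 and 0.50017 CPM in tumor macrophages, from 10, 12, 18 and 1 UMIs, and at 1.72, 1.57, 2.06 and 2.37 in tumor monocytes.

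Over all tumor CD45+ cells *Cxcl10* was at 1487 [1474, 1499] in *Aire*+/+ isotype, 1415 [1401, 1429] in *Aire*+/+ anti-PD1, 2289 [2269.9, 2308] in *Aire*-/- isotype and 1284 [1269, 1298] in *Aire*-/- anti-PD1 CPM. *Aire*-/- isotype was highest and *Aire*-/- anti-PD1 lowest. The *Aire*-/- to *Aire*+/+ ratio was 0.62 [0.61, 0.64] under isotype and −0.14 [−0.16, −0.12] under anti-PD1. Within macrophages *Cxcl10* was at 1189 [1173, 1206], 1093 [1073, 1113], 1863 [1832, 1894] and 1412 [1361, 1466] CPM, from 19182, 11956, 13905 and 2824 UMIs. The *Aire*-/- level was 1.57 times the *Aire*+/+ level under isotype (log2 0.65 [0.62, 0.68]) and 1.29 times under anti-PD1 (log2 0.37 [0.31, 0.43]). Both genotype differences were smaller than those of *Cxcl9* in the same cells. Under anti-PD1 the log2 ratio came to 0.056 without the 5 macrophages richest in *Cxcl10* in each library, which are a larger part of the 163 macrophages of *Aire*-/- anti-PD1 than of the 693 of *Aire*+/+ anti-PD1, and it came to 0.54 as a mean of per-cell fractions. Anti-PD1 to isotype ratios were −0.12 [−0.16, −0.089] in *Aire*+/+ and −0.40 [−0.46, −0.34] in *Aire*-/- mice. In the few macrophages of the CD8+ sort *Cxcl10* was at 5020, 1536, 1502 and 3004 CPM. There the *Aire*-/- to *Aire*+/+ ratio was −1.74 [−1.92, −1.57] under isotype and 0.97 [0.70, 1.24] under anti-PD1.

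Macrophages with a *Cxcl10* UMI made up 57.2 [54.1, 60.2], 55.6 [51.8, 59.3], 72.6 [68.3, 76.6] and 58.3 [50.3, 65.9]%, and 29.5, 26.8, 39.9 and 35.0% after thinning. The share was highest in *Aire*-/- isotype by either measure. No class with at least 20 cells in each tumor library was free of *Cxcl10*, and NK cells had a share of 14.7, 23.0, 25.7 and 31.4%. At least 10 UMIs of *Cxcl10* were found in 28.3, 26.1, 40.7 and 27.0% of macrophages, and the top 10% of macrophages held 68.5, 75.1, 56.7 and 70.1% of its UMIs.

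Monocytes held the largest part of the *Cxcl10* message in each library, 47.9, 52.9, 55.0 and 53.7% of its UMIs against 33.1, 29.4, 24.7 and 9.45% for macrophages. Their level was 2805 [2772, 2838], 3064 [3023, 3105], 4565 [4515, 4617] and 3450.3 [3397, 3504] CPM. The *Aire*-/- to *Aire*+/+ ratio in monocytes was 0.70 [0.68, 0.73] under isotype and 0.17 [0.14, 0.20] under anti-PD1. Anti-PD1 to isotype ratios were 0.13 [0.10, 0.15] in *Aire*+/+ and −0.40 [−0.43, −0.38] in *Aire*-/- mice. Of 10729 genes compared in monocytes under isotype, 2.48% were at least 2-fold higher and 4.05% at least 2-fold lower in *Aire*-/- cells, and of 10400 under anti-PD1, 3.01% were higher and 5.12% lower. *Cxcl9* was past 2-fold in both monocyte comparisons and *Cxcl10* in neither. The share of monocytes with a *Cxcl10* UMI was 60.1, 63.4, 77.5 and 70.0%, and 41.4, 43.8, 59.5 and 51.8% after thinning.

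Neutrophils, though only 25, 18, 18 and 8 cells, had *Cxcl10* at 3406 [3149.97, 3677], 8179 [7600.1, 8791], 7379 [6895, 7888] and 5589.8 [4883, 6369.9] CPM, above monocytes in each library. The richest neutrophil held 211, 158, 202 and 134 of the 655, 739, 863 and 225 UMIs, the median neutrophil held 0, 20, 29 and 0, and in *Aire*+/+ isotype 3 of the 25 cells held 73.6%. The cDC2 class was at 1470.04 [1380.2, 1564], 1409 [1314, 1508], 3113 [2966, 3267] and 4615 [4405, 4832] CPM, with *Aire*-/- to *Aire*+/+ ratios of 1.08 [0.97, 1.20] under isotype and 1.71 [1.59, 1.83] under anti-PD1. The cDC1 class was at 443 [373, 522], 556 [478, 643], 770.3 [679, 870.00] and 1200.4 [1103, 1304] CPM, with ratios of 0.80 [0.50, 1.10] and 1.11 [0.87, 1.36]. Mature dendritic cells were at 429 [385, 476], 488 [439.8, 539], 586 [543, 632] and 357 [325, 391] CPM, and their ratio was 0.45 [0.26, 0.64] under isotype and −0.45 [−0.65, −0.25] under anti-PD1. With doubled thresholds the isotype value turned to −0.094. In the tumor CD8+ sort, mature dendritic cells had 32, 22, 787 and 0 UMIs of *Cxcl10* (58.7, 110.5, 2579 and 0 CPM), with an isotype ratio of 5.46 [4.95, 6.01], and 330 of the 787 UMIs were in 1 cell. *Cxcl10*, like *Cxcl9*, was lower in mature dendritic cells than in macrophages of every tumor CD45+ library, though for *Cxcl9* the intervals overlapped in *Aire*+/+ isotype. The richest cell held 289, 221, 394 and 376 of the 997, 827, 1666 and 1813 UMIs of cDC2 cells, 143, 129, 139 and 211 of the 143, 182, 259 and 565 of cDC1 cells and 206, 132, 247 and 200 of the 349, 380, 675 and 462 of mature dendritic cells.

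Lymphocytes also carried *Cxcl10*. CD8 T cells of the CD8+ tumor sort were at 92.8 [89.4, 96.2], 114 [110.3, 119], 122 [117, 127] and 281 [274, 288] CPM, from 2909, 2888, 2523 and 6223 UMIs, so that *Aire*-/- anti-PD1 stood above the other libraries. The *Aire*-/- to *Aire*+/+ ratio was 0.39 [0.32, 0.47] under isotype and 1.30 [1.23, 1.36] under anti-PD1, and the anti-PD1 to isotype ratio was 0.30 [0.23, 0.38] in *Aire*+/+ and 1.21 [1.14, 1.27] in *Aire*-/- mice. Of 12070 genes compared in these cells under isotype, 2.05% were at least 2-fold higher and 2.35% at least 2-fold lower in *Aire*-/- cells, and of 11990 under anti-PD1, 2.43% were higher and 1.78% lower. *Cxcl10* was past 2-fold under anti-PD1 but not under isotype, and the few *Cxcl9* UMIs of these cells were past it under both. Myeloid genes rose over the libraries too, with 0.104, 0.189, 0.242 and 0.289 C1q UMIs and 0.0258, 0.0389, 0.0395 and 0.0550 *Lyz2* UMIs per cell. The 1 macrophage state gene compared in these cells had ratios of 2.60 and 2.22. The part of myeloid RNA in the ligand ratios was not tested. The share of CD8 T cells with a *Cxcl10* UMI was 10.6 [9.39, 11.9], 12.3 [10.95, 13.8], 14.5 [12.9, 16.2] and 19.7 [18.0, 21.4]%, and 3.73, 4.80, 5.32 and 8.04% after thinning. The top 10% of these cells held 99.5, 98.3, 96.9 and 95.4% of the *Cxcl10* UMIs.

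Among CD8 T cells, those with at least 20 UMIs of 10 genes induced by type I interferon (16.5, 21.6, 24.9 and 23.3% of the class) had *Cxcl10* at 498, 471, 428 and 1091 CPM. The remaining CD8 T cells were at 14.9, 18.7, 23.4 and 48.5 CPM. This threshold was also chosen after the data were seen. In either set *Aire*-/- anti-PD1 was highest.

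*Lyz2*, a gene of myeloid cells, was counted beside *Cxcl10* in the same cells. In tumor macrophages and monocytes there were 0.260 to 0.819 *Cxcl10* UMIs per *Lyz2* UMI. In CD8 T cells, NK cells and regulatory T cells of the CD45+ sort there were 3.19 to 210, and in CD8 T cells of the CD8+ sort 35.7 to 53.2. *Lyz2*, which had to be below 20 UMIs for a cell to enter these lymphocyte classes, averaged 0.0196 to 0.452 UMIs per cell in them, and that threshold in part sets these ratios. The part of free RNA in the *Cxcl10* of lymphocytes was not tested. In the CD45+ sort, CD8 T cells had *Cxcl10* at 249.5 [223, 279], 279 [256, 302], 139 [125, 155] and 413 [398, 428] CPM, NK cells at 186, 286, 395 and 211 and regulatory T cells at 130.3, 228, 672 and 213. In *Aire*-/- isotype 1 cell held 321 of the 737 UMIs of NK cells and 1 cell 140 of the 210 of regulatory T cells. The ratio of *Aire*-/- to *Aire*+/+ in CD8 T cells of this sort was −0.84 [−1.07, −0.61] under isotype and 0.57 [0.44, 0.70] under anti-PD1, and the isotype value turned to 0.57 with doubled thresholds.

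In macrophages and monocytes, cells with *Cxcl9* more often had *Cxcl10* too. Among macrophages with a *Cxcl9* UMI, 69.7, 63.7, 78.9 and 64.2% also had a *Cxcl10* UMI, against 53.2, 51.7, 68.7 and 52.4% of macrophages without one. Their median depths were 16636, 16169, 16506.5 and 11212 UMIs and 14092, 14184.5, 13507 and 11562.5 UMIs, so that cells with *Cxcl9* were also deeper except in *Aire*-/- anti-PD1. In monocytes the shares were 75, 74.5, 86.9 and 82.8% and 57.5, 60.9, 73.8 and 64.0%. In the small cDC1 class the shares were 25.0, 50, 28.6 and 52.6% and 0, 27.3, 33.3 and 12.5%, so that *Aire*-/- isotype ran the other way. *Nos2*-positive macrophages had *Cxcl10* at 1313, 1801, 1941 and 716 CPM and *Nos2*-negative ones at 1169, 999, 1841 and 1731, so that in *Aire*-/- anti-PD1 the order was the opposite of that of *Cxcl9*. Monocytes with a *Nos2* UMI had *Cxcl10* at 2656, 3080.5, 4050.3 and 2157 CPM and those without at 2817, 3063, 4612 and 3593, again the opposite of *Cxcl9* in all libraries but *Aire*+/+ anti-PD1, where the 2 levels were close.

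In spleen *Cxcl10* was at 1.07 [0.571, 1.83], 3.75 [2.69, 5.09], 13.0 [10.9, 15.3] and 5.31 [4.12, 6.74] CPM over all CD45+ cells, from 13, 41, 145 and 67 UMIs, of which 1 cell held 2, 25, 67 and 35. Spleen monocytes were at 5.23 [2.39, 9.92], 10.8 [5.38, 19.3], 76.5 [59.7, 96.4] and 3.71 [0.449, 13.4] CPM from 9, 11, 71 and 2 UMIs. Their *Aire*-/- to *Aire*+/+ ratio under isotype was 3.87 [2.86, 5.06], but 67 of the 71 UMIs of *Aire*-/- isotype monocytes came from 1 cell, and the ratio turned to −0.24 without cells above the 95th percentile of UMIs. Spleen CD8 T cells of the CD8+ sort were at 0.265, 0.496, 0.467 and 1.10 CPM, far below tumor CD8 T cells. *Cxcl11*, the remaining CXCR3 ligand gene of the family, was at 157, 145, 191 and 149 CPM in tumor macrophages and 137, 139, 172 and 144 in tumor monocytes. Its *Aire*-/- to *Aire*+/+ ratios in macrophages were 0.28 [0.19, 0.38] under isotype and 0.037 [−0.15, 0.22] under anti-PD1. C57BL/6 mice are known to carry a frameshift in *Cxcl11* that abolishes the protein.

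*Cxcr3* lies on the X chromosome (chrX:101731535-101734147, minus strand). In CD8 T cells of the CD8+ tumor sort it was at 34.3 [32.3, 36.4] in *Aire*+/+ isotype, 40.9 [38.4, 43.5] in *Aire*+/+ anti-PD1, 43.6 [40.8, 46.6] in *Aire*-/- isotype and 64.0 [60.7, 67.4] in *Aire*-/- anti-PD1 CPM, from 1075, 1032, 904 and 1417 UMIs. *Aire*-/- anti-PD1 was highest and *Aire*+/+ isotype lowest, and the intervals of *Aire*+/+ anti-PD1 and *Aire*-/- isotype overlapped. The *Aire*-/- level was 1.27 times the *Aire*+/+ level under isotype (log2 0.35 [0.22, 0.48]) and 1.56 times under anti-PD1 (log2 0.65 [0.53, 0.76]). Neither was past 2-fold. The isotype ratio came to 0.010 when every cell was thinned to 1000 UMIs, which leaves few *Cxcr3* UMIs, and to 0.21 without cycling cells. Anti-PD1 to isotype ratios were 0.25 [0.13, 0.38] in *Aire*+/+ and 0.55 [0.43, 0.67] in *Aire*-/- mice.

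The share of these CD8 T cells with a *Cxcr3* UMI was 25.7 [24.0, 27.5], 27.0 [25.1, 29.0], 29.0 [26.9, 31.2] and 34.7 [32.7, 36.8]%, and 4.39, 5.18, 5.50 and 9.26% after thinning in a separate draw. Tumor monocytes, which are not known to use the receptor, had a share of 1.10, 1.76, 1.49 and 0.236% at median depths of 11815, 11987, 12319.5 and 10892 UMIs against 10900.5, 10216.5, 10001 and 8795.5 in the CD8 T cells. The share in CD8 T cells was thus far above that of monocytes in each condition. These monocytes come from the CD45+ sort, since the CD8+ sort held too few, so no background was measured in the CD8+ libraries themselves. Monocytes were also a low comparison. In the first 3 conditions their *Cxcr3* was at 1.42, 1.85 and 1.32 CPM, against 6.51, 7.04 and 4.82 in macrophages of that sort. In *Aire*-/- anti-PD1 each of these classes held 1 UMI.

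CD8 T cells of the tumor CD45+ sort gave 50.7 [39.0, 64.9], 52.7 [43.2, 63.6], 53.2 [44.2, 63.4] and 72.8 [66.7, 79.4] CPM from 63, 107, 124 and 518 UMIs, with *Aire*-/- to *Aire*+/+ ratios of 0.069 [−0.38, 0.53] under isotype and 0.47 [0.16, 0.78] under anti-PD1. The isotype interval spans 0. Regulatory T cells (104, 66, 26 and 51 cells) had a higher CPM of *Cxcr3* than CD8 T cells in each library, 118 [99.1, 139.7], 163 [135, 195], 153 [113, 204] and 190.4 [154, 233] CPM. Their ratios were 0.38 [−0.13, 0.86] and 0.22 [−0.18, 0.63]. Other CD4 T cells (20, 35, 26 and 33 cells) were at 142 [81.4, 231], 134 [89.4, 192], 49.5 [24.7, 88.6] and 111 [71.9, 164] CPM, with ratios of −1.52 [−2.78, −0.33] and −0.26 [−1.10, 0.56]. Tumor NK cells were at 8.45 [4.50, 14.4], 10.7 [6.22, 17.1], 15.6 [10.4, 22.3] and 17.3 [13.2, 22.4] CPM, the lowest of the lymphocyte classes named here, and their ratios were 0.88 [−0.11, 1.95] and 0.70 [−0.10, 1.57].

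Over all tumor CD45+ cells *Cxcr3* was at 13.0 [11.9, 14.2], 16.1 [14.7, 17.7], 16.7 [15.1, 18.4] and 39.9 [37.4, 42.6] CPM, with ratios of 0.36 [0.17, 0.55] under isotype and 1.31 [1.15, 1.47] under anti-PD1. CD8 T cells held 12.5, 23.1, 30.1 and 55.7% of the *Cxcr3* UMIs of these libraries, following their share of cells. Ungated cells held 99, 77, 91 and 209 of the 506, 464, 412 and 930 *Cxcr3* UMIs. Macrophages held 105, 77, 36 and 1 *Cxcr3* UMIs, or 6.51 [5.33, 7.88], 7.04 [5.55, 8.80], 4.82 [3.38, 6.68] and 0.50017 [0.0127, 2.79] CPM, and the ratio under anti-PD1 was −3.81 [−9.14, −1.29]. In the CD8+ tumor sort, plasmacytoid dendritic cells (76, 19, 19 and 6 cells) were at 95.2 [76.4, 117], 109 [70.4, 161], 112 [75.017, 161] and 154 [82.2, 264] CPM.

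**Figure D3:**
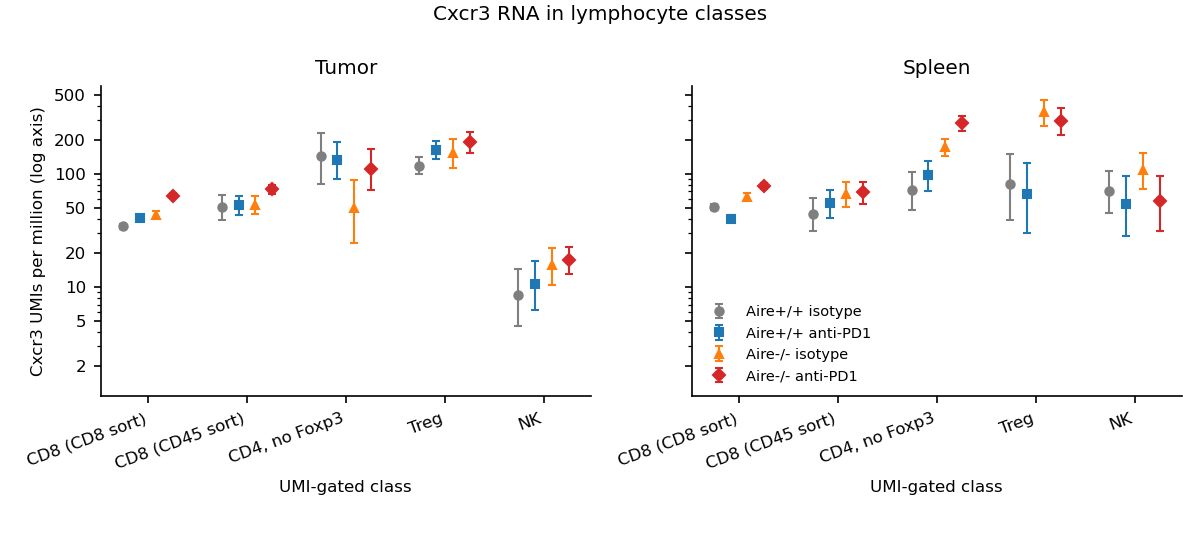
*Cxcr3* in CPM (log axis) in lymphocyte classes of tumor and spleen, 1 point per condition with exact Poisson 95% intervals. Among CD8 T cells of the CD8+ sort *Aire*-/- anti-PD1 is highest in both tissues, at 64.0 CPM in tumor and 78.3 CPM in spleen.

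Tumor CD8 T cells were divided further, with thresholds chosen after the data were seen. Cycling cells, with at least 2 UMIs of *Mki67* and *Top2a*, had *Cxcr3* at 15.9, 22.6, 21.8 and 22.3 CPM, and other CD8 T cells at 46.3, 49.5, 53.7 and 80.5. Cycling cells made up 26.7, 20.1, 19.7 and 16.8% of the class. In each library *Cxcr3* was lower in cycling cells, whose median depths were 17589.5, 17310, 17386.5 and 15914 UMIs against 9425, 9276, 9110 and 7899. Cells with a UMI of *Gzma*, which encodes a cytotoxic granule protease, had *Cxcr3* at 63.5, 62.6, 75.4 and 86.7 CPM, against 28.8, 36.1, 35.0 and 55.4 without. *Gzma*-positive cells made up 18.6, 20.9, 25.2 and 30.5%. For *Gzmb* the corresponding values were 33.6, 39.8, 40.2 and 55.8 and 36.9, 45.7, 56.4 and 108 CPM. Cells with both *Tcf7*, a factor of stem-like T cells, and *Pdcd1*, which encodes PD-1, were at 66.1, 101, 90.2 and 124 CPM. Cells with at least 20 UMIs of the type I interferon list were at 67.3, 63.6, 61.7 and 88.5 CPM of *Cxcr3*, against 27.9, 34.8, 37.8 and 56.9 in the rest. In every one of these states *Aire*-/- anti-PD1 was above *Aire*+/+ anti-PD1 except among cycling cells, where the levels were 22.3 and 22.6 CPM.

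In spleen, CD8 T cells of the CD8+ sort had *Cxcr3* at 50.6 [47.5, 54.0], 40.2 [37.3, 43.2], 62.9 [58.9, 67.0] and 78.3 [74.0, 82.8] CPM, from 954, 729, 943 and 1211 UMIs. Both *Aire*-/- libraries were above both *Aire*+/+ libraries. The *Aire*-/- to *Aire*+/+ ratio was 0.31 [0.18, 0.44] under isotype and 0.96 [0.83, 1.10] under anti-PD1. Anti-PD1 to isotype ratios were −0.33 [−0.48, −0.19] in *Aire*+/+ and 0.32 [0.19, 0.44] in *Aire*-/- mice. The share of cells with a UMI was 16.5 [15.2, 18.0], 14.9 [13.6, 16.3], 20.3 [18.6, 22.0] and 24.9 [23.2, 26.7]%, and 4.19, 3.10, 4.51 and 5.94% after thinning. Cells with a *Gzmb* UMI numbered 77, 56, 163 and 163 and were at 239, 218, 165 and 225 CPM, against 44.2, 36.6, 54.1 and 67.3 in CD8 T cells without one. Among cells without *Gzmb* both *Aire*-/- levels were above both *Aire*+/+ levels, and among cells with it the *Aire*-/- level was lower than the *Aire*+/+ level under isotype and near it under anti-PD1. The part of the number of *Gzmb*-positive cells in the *Cxcr3* ratios was not tested.

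In the spleen CD45+ sort, regulatory T cells (19, 23, 32 and 34 cells) had *Cxcr3* at 82.0 [39.3, 151], 66.1 [30.2, 125], 348 [266, 447] and 293 [219, 384] CPM from 10, 9, 61 and 52 UMIs. Their *Aire*-/- to *Aire*+/+ ratio was 2.09 [1.11, 3.22] under isotype and 2.15 [1.11, 3.35] under anti-PD1. Other CD4 T cells were at 71.7 [47.6, 104], 96.9 [70.1, 131], 172 [143, 204] and 278 [238, 323] CPM, with ratios of 1.26 [0.66, 1.90] and 1.52 [1.03, 2.04]. In both classes the *Aire*-/- libraries were the higher ones, but the share of all genes past 2-fold in these small classes was not computed. CD8 T cells of this sort were at 44.2, 55.0, 66.0 and 68.4 CPM, with ratios of 0.58 [−0.019, 1.19] and 0.31 [−0.21, 0.85]. NK cells were at 70.8 [45.4, 105], 54.5 [28.1, 95.1], 107 [72.8, 152] and 57.5 [31.4, 96.5] CPM, above tumor NK cells in each condition. B cells were at 2.63 [1.58, 4.11], 4.22 [2.83, 6.07], 2.62 [1.56, 4.15] and 8.26 [6.44, 10.4] CPM. Over all spleen CD45+ cells the ratio was 1.14 [0.91, 1.39] under isotype and 0.84 [0.64, 1.04] under anti-PD1. A large part of the receptor message lay outside the classes. Ungated cells held 70, 149, 108 and 223 of the 214, 308, 436 and 638 *Cxcr3* UMIs of these spleen libraries.

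The pathway genes around the axis were compared as lists, each *Aire*-/- over *Aire*+/+ and each beside the median of all compared genes. Those medians were −0.026 and −0.090 on the log2 scale in macrophages under isotype and anti-PD1, −0.078 and −0.068 in monocytes, and −0.028 and −0.0046 in CD8 T cells of the CD8+ sort. Of all genes compared, 2.98 and 3.71% were at least 2-fold higher and 2.89 and 7.93% lower in macrophages under isotype and anti-PD1, 2.48 and 3.01% higher and 4.05 and 5.12% lower in monocytes, and 2.05 and 2.43% higher and 2.35 and 1.78% lower in CD8 T cells. The ligand list holds *Cxcl9*, *Cxcl10* and *Cxcl11*, so that it mostly restates values already given. Of its 3 genes, 1 was at least 2-fold higher in each macrophage and monocyte comparison and in CD8 T cells under isotype, and 3 were in CD8 T cells under anti-PD1. Median ratios of the ligand genes were 0.65 and 0.37 in macrophages, 0.70 and 0.17 in monocytes, and 0.60 and 1.44 in CD8 T cells.

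Genes induced by interferon-γ, which include guanylate-binding proteins, immunity-related GTPases and antigen-processing genes, lay above 0 in *Aire*-/- macrophages, most of them by less than 2-fold. Of 14 compared, all 14 lay above 0, where the median of all genes lay below 0, and 3 under isotype and 6 under anti-PD1 were at least 2-fold higher, against 2.98 and 3.71% of all genes. Their medians were 0.85 and 0.91. *Gbp2* went from 243 to 617 CPM under isotype (1.34) and from 259.95 to 729 CPM under anti-PD1 (1.49). *Iigp1* had ratios of 1.13 and 1.38, and *Gbp4* of 1.08 and 1.55. *Psmb8*, of the immunoproteasome, had ratios of 0.20 and 0.33. *Nos2*, on this list and on that of macrophage states, had ratios of 0.94 and 2.70. In monocytes 2 and 5 of 15 were at least 2-fold higher, against 2.48 and 3.01% of all genes, with medians of 0.59 and 0.54. In CD8 T cells, of 13 compared, 1 was 2-fold lower under isotype (*Ciita*) and 1 was 2-fold higher under anti-PD1 (*Iigp1*), where 2.35% of all genes were lower and 2.43% higher, with medians of 0.20 and 0.37.

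For interferon-γ and its signalling genes, 0 and 1 of 8 were at least 2-fold higher in macrophages and 2 and 0 of 8 in monocytes, under isotype and anti-PD1 in turn, against 2.98 and 3.71% and 2.48 and 3.01% of all genes. Medians were 0.43 and 0.43 in macrophages and 0.45 and 0.40 in monocytes. *Socs1*, a feedback inhibitor of interferon signalling, had ratios of 0.81 and 1.18 in macrophages. Among CD8 T cells none of 9 passed 2-fold, with medians of 0.26 and 0.28. From *Aire*+/+ to *Aire*-/- cells, *Ifng* itself went there from 740.1 to 732 CPM under isotype (−0.015) and from 545 to 662 CPM under anti-PD1 (0.28).

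Genes induced by type I interferon form the next list. None of 10 passed 2-fold in any of the 6 comparisons, in which 1.78 to 7.93% of all genes did in 1 direction, so that a count of 0 is near that share. In macrophages all 10 lay above 0 under isotype, with a median of 0.66, and 6 did under anti-PD1, with a median of 0.077. In monocytes all 10 lay above 0 under isotype, with a median of 0.26, and all 10 lay below 0 under anti-PD1, with a median of −0.47. Medians in CD8 T cells were 0.59 and 0.43. *Isg15* had ratios of 0.27 and −0.17 in monocytes, and *Rsad2* 0.56 and −0.50. The *Cxcl10* ratio in monocytes, 0.70 and 0.17, lay between the median of this list and the *Cxcl9* ratio in either treatment.

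None of 5 NF-κB pathway genes passed 2-fold in any of the 6 comparisons, also near the share of all genes, with medians of 0.21 and 0.090 in macrophages, 0.37 and 0.25 in monocytes and 0.090 and 0.090 in CD8 T cells. *Dpp4*, which encodes the protease that trims these ligands, had ratios of 0.71 and 0.0073 in macrophages, 0.20 and 0.12 in monocytes and 0.044 and 0.10 in CD8 T cells. In macrophages 0 and 1 of 4 state genes passed 2-fold, the latter *Nos2*, where 3.71% of all genes were that much higher, with medians of 0.095 and 0.21.

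Of 8 regulators of *Cxcr3*, 4 under isotype and 3 under anti-PD1 lay above 0 in CD8 T cells. None passed 2-fold, nor did *Cxcr3* itself, and 2.05 and 2.43% of all genes were 2-fold higher there. The regulators had medians of −0.024 and −0.13. *Tbx21*, the gene of T-bet, which drives *Cxcr3*, had ratios of 0.089 and −0.20. Among 9 other homing receptor genes none passed 2-fold either, with medians of 0.13 and 0.19. *Cxcr6* had ratios of 0.014 and 0.24, and *S1pr1* of 0.14 and 0.93. Of 9 genes that mark CD8 T cell states, 1 passed 2-fold in each treatment (2.05 and 2.43% of all genes were higher), *Gzma*, which went from 400.3 to 932 CPM under isotype (1.22) and from 517 to 1245 under anti-PD1 (1.27). *Gzma* was also found in tumor monocytes of *Aire*-/- anti-PD1, at 73.8 CPM against 0.285 in *Aire*+/+ anti-PD1. In macrophages 7 CD8 state genes were compared, of which 2 were at least 2-fold higher and 1 lower in each treatment. All 5 *Cxcr3* regulators compared there lay above 0, with medians of 0.65 and 0.41, and 1 and 2 were 2-fold higher. Of all macrophage genes, 2.98 and 3.71% were higher and 2.89 and 7.93% lower. The part of lymphocyte RNA or doublets in monocytes and macrophages was not tested.

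Of 18 genes for other cells and library quality, 8 were compared in macrophages under isotype, of which 2 were at least 2-fold higher and 1 lower, and 7 under anti-PD1, of which 1 was higher and 3 lower. Of all genes there, 2.98 and 3.71% were higher and 2.89 and 7.93% lower. *Fos* had ratios of −0.53 and −0.56 and *Jun* of −0.51 and −0.53. *Hspa1a*, a heat shock gene, had ratios of −0.023 and −1.63. In monocytes 7 genes of the list were compared in each treatment, of which 1 was 2-fold higher under isotype and 1 lower under anti-PD1. Of all monocyte genes, 2.48% were higher under isotype and 5.12% lower under anti-PD1. In CD8 T cells 2 and 0 of 8 passed 2-fold upward and none downward, where 2.05 and 2.43% of all genes were higher. The part of dissociation or stress in the ligand levels was not tested.

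Over 72 sums of class and library, the genes whose log2(CPM + 10) ran most like that of *Cxcl9* were *Ifi205* (Pearson r 0.93), *Spint1* (0.92), *Cxcl16* (0.90), *Cttnbp2nl* (0.89) and *Sh3pxd2b* (0.89), out of 10830 genes. For *Cxcl10* they were *Rsad2* (0.93), *Cdkn1a* (0.93), *Lilr4b* (0.92), *Csrnp1* (0.91) and *Isg15* (0.91). For *Cxcr3* they were *Tmem191c* (0.86), *Sytl1* (0.85), *Lat* (0.84), *Prkca* (0.84) and *Mllt3* (0.84). *Cxcl9* and *Cxcl10* had an r of 0.65 with each other, and *Cxcr3* had −0.51 with *Cxcl9* and −0.47 with *Cxcl10*. The points are different classes of the same libraries and differ in depth.

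The promoters of both ligand genes, whose levels differed between the genotypes in the same myeloid classes, are shown with matches to interferon and NF-κB motifs. They run from 250 bases before to 50 bases after the gene start in RefSeq (GRCm38.p6), on the minus strand, at chr5:92328030-92328329 for *Cxcl9* and chr5:92348840-92349139 for *Cxcl10*, written 5′ to 3′ with motif matches in capitals.
Cxcl9: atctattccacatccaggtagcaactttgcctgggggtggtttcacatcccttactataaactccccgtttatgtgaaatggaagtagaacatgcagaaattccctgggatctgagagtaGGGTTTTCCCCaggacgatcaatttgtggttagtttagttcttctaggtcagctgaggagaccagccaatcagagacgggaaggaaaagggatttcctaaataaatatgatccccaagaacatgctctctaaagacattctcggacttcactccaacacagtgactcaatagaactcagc
Cxcl10: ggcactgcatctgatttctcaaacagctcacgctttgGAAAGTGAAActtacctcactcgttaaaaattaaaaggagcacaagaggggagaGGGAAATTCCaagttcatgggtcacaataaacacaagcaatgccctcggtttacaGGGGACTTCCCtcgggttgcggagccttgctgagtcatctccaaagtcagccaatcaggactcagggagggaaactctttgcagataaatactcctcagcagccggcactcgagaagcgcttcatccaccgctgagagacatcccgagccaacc
Both strands were searched. The interferon-stimulated response element (GAAA, any 2 bases, GAAA) was found at bases 38 to 47 of the *Cxcl10* promoter and not in that of *Cxcl9*, and 3.44% of 32851 promoters of the same length hold it. The κB motif (GGG, any 5 bases, CC) was found in *Cxcl9* at bases 121 to 131 as 3 overlapping matches, and in *Cxcl10* at bases 92 to 101 and, as 3 overlapping matches, at bases 147 to 157, and 50.8% of promoters hold it. The interferon-γ-activated sequence TTCNNNGAA, held by 8.30% of promoters, and the T-box motif AGGTGTGA, held by 1.28%, were not in either window, nor in the corresponding window of *Cxcr3*, which had 1 κB match. A match describes letters only, and elements that depart from these letters were not searched for.

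Each group is 1 library of pooled animals, so differences between conditions, animals and library preparation cannot be told apart. Classes rest on UMI thresholds, and a ratio within a class can reflect which cells met them. *Cxcr3* is a low count gene, and several dendritic cell and T cell classes held few cells. RNA levels say nothing of secreted chemokine or of receptor on the surface.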

How the data were processed

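UMI counts were measured in droplets (10x Genomics Chromium) in 16 libraries, 1 for each genotype, treatment, tissue and sort. The labels name a 3′ kit for each library, while the study's methods also describe a 5′ kit for RNA libraries made beside T cell receptor libraries from such sorted cells, and no source says how the 2 descriptions fit together. For the 8 libraries of the CD8+ sort, a supplementary table of the study counts cells with T cell receptor sequences out of totals equal to the deposited barcodes, which points to the 5′ kit for these, so that levels in the 2 sorts may differ by kit. The authors deposited whole-number UMI counts per gene and barcode, with no normalization. The build GRCm38 comes from the submitters' processing notes, and the study's methods name Cell Ranger for counting, with a version only for the libraries of the 5′ kit. Of 25127 rows, 25050 are named by a symbol, and rows of 1 symbol were summed to 24419. Barcodes with under 200 genes or over 20% mitochondrial UMIs were left out. UMIs were summed per library and class, and CPM is the count per 1000000 UMIs of that sum.

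Classes followed UMI thresholds, applied in a fixed order. T cells had at least 2 UMIs of *Cd3d*, *Cd3e* and *Cd3g*, CD8 T cells at least 2 of *Cd8a* and *Cd8b1* with no *Cd4*, regulatory T cells *Cd4* and *Foxp3*, and other CD4 T cells *Cd4* alone. T cells with at least 2 UMIs of *Ncr1* and *Klrb1c*, or at least 20 of *Lyz2*, were left ungated. The T cell classes therefore do not hold every T cell of their kind. NK cells had at least 2 of *Ncr1* and *Klrb1c*, B cells at least 4 of *Cd79a* and *Cd79b*, mature dendritic cells at least 5 of *Fscn1*, *Ccr7* and *Ccl22*, cDC1 cells at least 2 of *Xcr1* and *Clec9a*, cDC2 cells at least 2 of *Cd209a* and *Flt3* with at least 10 of *H2-Ab1*, plasmacytoid dendritic cells at least 2 of *Siglech*, and neutrophils at least 50 of *S100a8* and *S100a9* with *Csf3r*. The monocyte genes were *Ly6c2*, *Ccr2*, *Chil3*, *Ace* and *Treml4*. The members and gene lists were chosen with earlier results of these data known. Named genes are the members, the list genes, and the 5 genes most alike to each member over sums of at least 20 cells and 100000 UMIs, among genes with at least 500 UMIs. Genes entered a comparison where both libraries together held at least 10 UMIs, and past 2-fold means a log2 ratio of at least 1 or at most −1. A count of 0 was taken to allow up to the level of 3 counts. Ratio calculations were tested on simulated data. Results for some genes are not reported here. Alternatives changed the cell filter, the class thresholds, depth per cell (thinned to 1000 UMIs), cell weights, scaling, cells of very high UMIs and the UMI minimum. Leaving out the 5 richest cells, pooling macrophages with monocytes and leaving out cycling cells were chosen after seeing the data. Python 3.11.15, numpy 2.4.6, scipy 1.17.1, pandas 2.3.3 and matplotlib 3.10.9 were used.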

Additional observations from a re-analysis of the deposited data

Results flagged for a closer look

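Several log2 ratios had opposite signs in the 2 arms of a comparison, with intervals that did not span 0, and the difference between the arms was not tested in any of them, since each arm rests on 1 library per group.

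Under isotype and anti-PD1 in turn, the *Aire*-/- to *Aire*+/+ ratio of *Cxcl10* in the tumor CD45+ sort was 0.62 and −0.14 over all cells and 0.45 and −0.45 in mature dendritic cells. CD8 T cells of that sort had −0.84 and 0.57, and NK cells 1.09 and −0.44. In the spleen CD8+ sort the same ratio of *Cxcl9* was −2.25 and 1.60 over all cells and −0.79 and 1.46 in cDC1 cells. Some tumor classes with under 20 cells in a library also had opposite signs. Neutrophils had ratios of 1.12 and −0.55 for *Cxcl10*. Macrophages of the tumor CD8+ sort had −0.59 and 3.15 for *Cxcl9* and −1.74 and 0.97 for *Cxcl10*.

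In *Aire*+/+ and *Aire*-/- mice in turn, the anti-PD1 to isotype ratio of *Cxcl9* in the tumor CD45+ sort was 0.64 and −0.41 over all cells, 0.39 and −0.12 in monocytes and −1.29 and 0.26 in cDC2 cells. For *Cxcl10* it was 0.13 and −0.40 in monocytes, 0.81 and −1.66 in regulatory T cells and 0.62 and −0.91 in NK cells of the tumor. Over all spleen CD45+ cells the *Cxcl10* ratio was 1.81 and −1.29. In the spleen CD8+ sort the *Cxcl9* ratio was −2.25 and 1.60 over all cells and −1.60 and 0.65 in cDC1 cells. The *Cxcr3* ratio was −0.32 and 0.32 over all cells and −0.33 and 0.32 in CD8 T cells of that sort. Among tumor classes with under 20 cells in a library, cDC1 cells had −2.30 and 1.86 for *Cxcl9* and neutrophils 1.26 and −0.40 for *Cxcl10*.

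Several of these signs turned under other settings. For *Cxcl10* under isotype, the *Aire*-/- to *Aire*+/+ ratio turned to −0.094 in mature dendritic cells and to 0.57 in CD8 T cells with doubled thresholds. In NK cells it turned to −0.36 under isotype with thinned cells and to 0.66 under anti-PD1 without the 5 richest cells. Without those cells the anti-PD1 to isotype ratio of *Cxcl10* turned in regulatory T cells of both genotypes (−0.29 and 0.95) and in *Aire*-/- NK cells (0.32, and 0.17 thinned). The *Aire*-/- ratio of *Cxcl9* turned to 0.092 in monocytes with halved thresholds, and to −0.11 thinned and −3.64 without the 5 richest cells in cDC2 cells. All 4 ratios of *Cxcl9* in spleen cDC1 cells turned without cells above the 95th percentile of UMIs. In spleen CD45+ cells 1 cell held 25 of the 41 *Cxcl10* UMIs of *Aire*+/+ anti-PD1, 67 of the 145 of *Aire*-/- isotype and 35 of the 67 of *Aire*-/- anti-PD1.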

How the results depend on the processing

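The *Aire*-/- to *Aire*+/+ log2 ratios of *Cxcl9* and *Cxcl10* in tumor macrophages and of *Cxcr3* in tumor CD8 T cells kept their sign under every alternative run, and the values that follow lay outside the interval of the reported value. For *Cxcl9* under anti-PD1 these were 1.31 with doubled thresholds, 1.73 with thinned cells, 1.66 for the mean of per-cell fractions, 1.60 without cells above the 95th percentile of UMIs and 1.26 with macrophages and monocytes pooled. For *Cxcl9* under isotype they were 1.78 with halved thresholds and 1.81 pooled. For *Cxcl10* under anti-PD1 they were 0.46 and 0.23 with halved and doubled thresholds, 0.60 thinned, 0.54 by fractions, 0.44 without the deepest cells, 0.056 without the 5 richest cells and 0.61 pooled. For *Cxcl10* under isotype they were 0.71 with halved thresholds, 0.57 by fractions, 0.60 without the deepest cells and 0.80 pooled. For *Cxcr3* they were 0.78 by fractions under anti-PD1, and 0.010 thinned and 0.21 without cycling cells under isotype. Removing 5 cells takes a larger part of a small class than of a large one. Removing the 5 richest cells, pooling and removing cycling cells were added after the data were seen.

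Of 131 other ratios, 979 values were computed under the alternatives, of which 780 lay within the reported interval, 172 moved outside it with the same sign and 27 turned sign. No value turned without the cell filter, by fractions or with median-of-ratios size factors, and 1 or more of these ratios gave no value under each of the other alternatives, for want of cells or UMIs (most often without the 5 richest cells, where 97 of 131 gave one). The cause was not tested for any of these. In the tumor CD45+ sort, *Aire*-/- to *Aire*+/+ values that turned under isotype were those of *Cxcl10* in mature dendritic cells (−0.094) and CD8 T cells (0.57) with doubled thresholds, in regulatory T cells without the 5 richest cells (−0.55) and in NK cells thinned (−0.36), and that of *Cxcl9* in NK cells with halved thresholds (0.60). Under anti-PD1 *Cxcl10* in NK cells turned without the 5 richest cells (0.66).

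Anti-PD1 to isotype values that turned in *Aire*+/+ mice were *Cxcl9* in mature dendritic cells with halved thresholds (−0.55) and without the 5 richest cells (−0.35), *Cxcl10* in regulatory T cells without the 5 richest cells (−0.29) and *Cxcr3* in regulatory T cells thinned (−0.19). In *Aire*-/- mice thinning turned *Cxcr3* in macrophages (1.51), *Cxcl9* in cDC2 cells (−0.11) and *Cxcl10* in NK cells (0.17). Halved thresholds turned *Cxcl9* in monocytes (0.092) and *Cxcl10* in CD4 T cells without *Foxp3* (−0.65), and doubled ones *Cxcl9* in CD8 T cells (−0.00037) and in CD4 T cells without *Foxp3* (−0.71). Leaving out the 5 richest cells turned *Cxcl9* in cDC2 cells (−3.64) and *Cxcl10* in regulatory T cells (0.95) and NK cells (0.32).

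In spleen, values turned without cells above the 95th percentile of UMIs. In the CD45+ sort these were *Cxcl10* in monocytes, *Aire*-/- to *Aire*+/+ under isotype (−0.24), and in B cells, anti-PD1 to isotype in *Aire*-/- mice (0.74). In the CD8+ sort they were *Cxcl9* in cDC1 cells, *Aire*-/- to *Aire*+/+ under isotype (0.11) and anti-PD1 (−0.45) and anti-PD1 to isotype in *Aire*+/+ (0.094) and *Aire*-/- mice (−0.47), and in CD8 T cells anti-PD1 to isotype in *Aire*-/- mice (−0.029).

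With no minimum of UMIs, genes past 2-fold between *Aire*-/- and *Aire*+/+ went from 672 to 3034 in macrophages under isotype and from 1268 to 3705 under anti-PD1. In monocytes they went from 700 to 2849 and from 846 to 2968, and in CD8 T cells from 531 to 2478 and from 504 to 2450. The genotypes were compared within each treatment, and a paired test over the 2 treatments was not run.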
